A study of Homo sapiens with 9 samples.

Results

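The 10 genes followed here encode enzymes of serine, proline and one-carbon metabolism: PHGDH, PSAT1 and PSPH of serine synthesis, SHMT1, SHMT2, MTHFD2 and MTHFD1L of one-carbon metabolism, ALDH18A1 and PYCR1 of proline synthesis, and PCK2. They were chosen by gene name from the 59410 names in the expression files, and each name had 1 identifier among 60623. RNA-seq was performed on U937, a human monocytic cell line, in 3 stable lines that carried a doxycycline-inducible retroviral construct with HA-tagged AML1-ETO, with HA-tagged ETO2-GLIS2, or with no insert (empty vector). Every line, the vector line included, was given 5 μg/ml doxycycline and sampled at 0, 12 and 48 h, which makes 9 libraries with 1 library per condition. The AML1-ETO and ETO2-GLIS2 lines are 1 clone each and are called clones here, so a difference between lines cannot be told apart from a difference between clones. No culture was left without the drug for 12 or 48 h, so in the vector line the drug cannot be told apart from time in culture.

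Serine is made from a glycolytic intermediate in 3 steps, by PHGDH, which starts the pathway, then PSAT1, which adds the amino group, and PSPH, which removes the phosphate. SHMT1 in the cytosol and SHMT2 in mitochondria convert serine to glycine and hand its carbon to folate, and MTHFD2 and MTHFD1L carry that carbon to formate in mitochondria, while MTHFD1 does the corresponding work in the cytosol. ALDH18A1 begins and PYCR1 ends the mitochondrial route from glutamate to proline, and PCK2 makes phosphoenolpyruvate in mitochondria. Genes of these pathways are known targets of ATF4, a transcription factor whose translation increases under amino acid shortage, endoplasmic reticulum stress and mitochondrial stress. Doxycycline is known to inhibit the mitochondrial ribosome.

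The sequences upstream of 4 members are shown because these genes moved differently: PSAT1 and MTHFD2 passed 2-fold upwards in all 3 lines at 48 h, PHGDH did so in 1 line, and ALDH18A1 was lower in all 3 lines. Each stretch holds the 140 bases before the RefSeq transcription start on GRCh38.p14, 5′ to 3′ in the direction of the gene. Capitals mark CCAAT, the box bound by NF-Y, in the stretches of PSAT1, MTHFD2 and PHGDH, and CACGTG, the E-box bound by MYC and related factors, in that of ALDH18A1.
PSAT1, chr9:78296985-78297124, plus strand: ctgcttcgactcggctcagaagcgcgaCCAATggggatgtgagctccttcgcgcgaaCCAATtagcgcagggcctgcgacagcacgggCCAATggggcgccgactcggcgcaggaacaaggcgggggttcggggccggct
MTHFD2, chr2:74198475-74198614, plus strand: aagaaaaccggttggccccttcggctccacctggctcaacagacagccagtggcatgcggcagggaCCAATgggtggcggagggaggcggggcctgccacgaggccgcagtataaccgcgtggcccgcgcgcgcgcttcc
PHGDH, chr1:119711794-119711933, plus strand: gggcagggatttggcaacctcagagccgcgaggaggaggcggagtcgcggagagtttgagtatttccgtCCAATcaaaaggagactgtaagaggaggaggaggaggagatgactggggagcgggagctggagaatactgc
ALDH18A1, chr10:95656712-95656851, minus strand: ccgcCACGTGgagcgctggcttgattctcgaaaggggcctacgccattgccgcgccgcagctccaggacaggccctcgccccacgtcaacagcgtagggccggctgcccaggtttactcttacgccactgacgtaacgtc

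Of the 10 members, 7 had a window of 300 bases around a RefSeq start (10 windows, 4 of them for MTHFD1L), and 3 motifs were searched in both orientations. CCAAT stood in at least 1 window of 6 of the 7 members. By windows it stood in 8 of the 10 (80.0%), against 34.6% of 35116 windows of all genes. PSAT1 held 3 copies, MTHFD2 and SHMT1 held 2 each, and ALDH18A1 held none. SHMT1 and ALDH18A1 were both lower at 48 h than at 0 h in every line. CACGTG stood in windows of MTHFD1L and ALDH18A1, 4 of the 10 windows (40.0%), against 7.26% of all windows. TGATGNAA, the core of the element bound by ATF4 with a C/EBP partner, was found in 1 of the 7 members, MTHFD1L, and in 3.62% of all windows. No match overlapped another in the windows of these members. The TGATGNAA match of MTHFD1L is printed because it is the only match to that motif, with the 8 matching letters in capitals.
MTHFD1L, chr6:150866346-150866375, plus strand: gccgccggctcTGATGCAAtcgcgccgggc

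FPKM, which scales the reads of a gene to its exon kilobases and to the size of the library, allows levels to be compared between genes. Totals of 15136399 to 18443640 reads on genes were recovered from the values, with whole reads for 23739 (99.4%) of 23889 genes. RUNX1T1, which holds the ETO part of AML1-ETO, was at 0.512, 22.2 and 28.7 FPKM at 0, 12 and 48 h in the AML1-ETO clone and at most 0.0240 FPKM in the other lines. GLIS2 was at 2.39, 6.79 and 8.85 FPKM in the ETO2-GLIS2 clone. It was at 4.76, 3.64 and 3.72 FPKM in the vector line and 5.60, 2.93 and 2.47 FPKM in the AML1-ETO clone. GLIS2 was therefore highest in the ETO2-GLIS2 clone at 12 and 48 h but lowest there at 0 h. The levels of RUNX1T1 and the rise of GLIS2 with doxycycline matched the labels of the lines. Of 10 monocytic markers 6 had a mean of at least 1 FPKM, and CD3D, CD3E, MS4A1, HBB and PF4, defining markers of T, B, erythroid and megakaryocytic cells, were listed at 0 in every library. The 13 protein-coding genes of the mitochondrial genome held 6.16%, 3.69% and 3.53% of reads at 0, 12 and 48 h in the vector line, 4.97%, 2.93% and 0.980% in the AML1-ETO clone, and 5.71%, 3.79% and 2.13% in the ETO2-GLIS2 clone.

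Of the 10 members, 9 were at 5.48 FPKM or higher in every library, and the tenth, PYCR1, was below 1 FPKM throughout and entered no count. A member was called when its FPKM differed more than 2-fold, on the scale of log2(FPKM + 0.01), at a mean of at least 1 FPKM. A change within 1 line rests on single libraries and has neither a replicate check nor a test, and a model of the time effect shared by the 3 lines was not fitted. Intervals are exact 95% Clopper-Pearson intervals on the recovered reads, which cover counting error only and treat reads as independent molecules. Fewer cells and less RNA per cell cannot be told apart in these bulk samples.

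In the vector line, PSAT1 and PCK2 rose past 2-fold at 12 h, and PSAT1 and MTHFD2 rose and ALDH18A1 fell at 48 h. Of all genes tested, 5.49% were called up and 1.76% down at 12 h, and 7.82% up and 2.90% down at 48 h. Between 12 and 48 h no member passed 2-fold in this line, against 2.10% of all genes up and 2.96% down. In the ETO2-GLIS2 clone PSAT1 alone among the members passed 2-fold at 12 h, beside 2.94% of all genes up and 1.38% down. At 48 h 5 members had risen there (PHGDH, PSAT1, PSPH, MTHFD2 and PCK2) and none had fallen, beside 10.6% up and 2.51% down, and from 12 to 48 h PSAT1 rose again, beside 5.48% up and 2.09% down. In the AML1-ETO clone PSAT1 rose at 12 h, beside 6.40% up and 2.34% down. At 48 h PSAT1, PSPH and MTHFD2 had risen and ALDH18A1 had fallen in that line, where 17.1% of all genes were up and 11.3% down, so the 3 rises among 9 members stood beside a wider background than in the other lines. From 12 to 48 h PSPH rose and MTHFD1L fell there, beside 8.90% up and 10.2% down. Rescaling each library by its median ratio changed the balance of calls in both fusion lines. At 48 h the members called were then 2 up and 1 down in the vector line, as before, 3 up (PHGDH, PSAT1 and MTHFD2) and 1 down (ALDH18A1) in the ETO2-GLIS2 clone, and 3 up and 2 down (SHMT1 and ALDH18A1) in the AML1-ETO clone. The background became 5.50% up and 4.18% down in the vector line, 7.73% and 3.51% in the ETO2-GLIS2 clone and 13.2% and 13.9% in the AML1-ETO clone at 48 h, and 4.10% and 2.27%, 2.34% and 1.80%, and 4.61% and 3.40% at 12 h in the same order.

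The median change of the 9 members at 48 h was lower in the AML1-ETO clone than in the other lines, with a wide spread among members. It was 0.78 on the log2 scale in the vector line and 1.0 in the ETO2-GLIS2 clone, against a median over all genes of 0.16 in each. In the AML1-ETO clone it was 0.13 against 0.22 over all genes, and −0.04 after each library was rescaled by its median ratio. From the second lowest to the second highest member the changes ran from −0.37 to 1.17 in the vector line, from −0.96 to 1.63 in the AML1-ETO clone and from −0.14 to 1.42 in the ETO2-GLIS2 clone, ranges that overlap. At 12 h the medians were closer, at 0.69, 0.53 and 0.62 in the empty vector, AML1-ETO and ETO2-GLIS2 lines, against 0.14, 0.18 and 0.11 over all genes. From 12 to 48 h they were −0.02, −0.41 and 0.34, against 0.00, 0.02 and 0.06. The plots of levels show that PHGDH, MTHFD1L and PCK2 were lower at 48 h than at 12 h in the AML1-ETO clone but higher in the ETO2-GLIS2 clone.

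**Figure D1:**
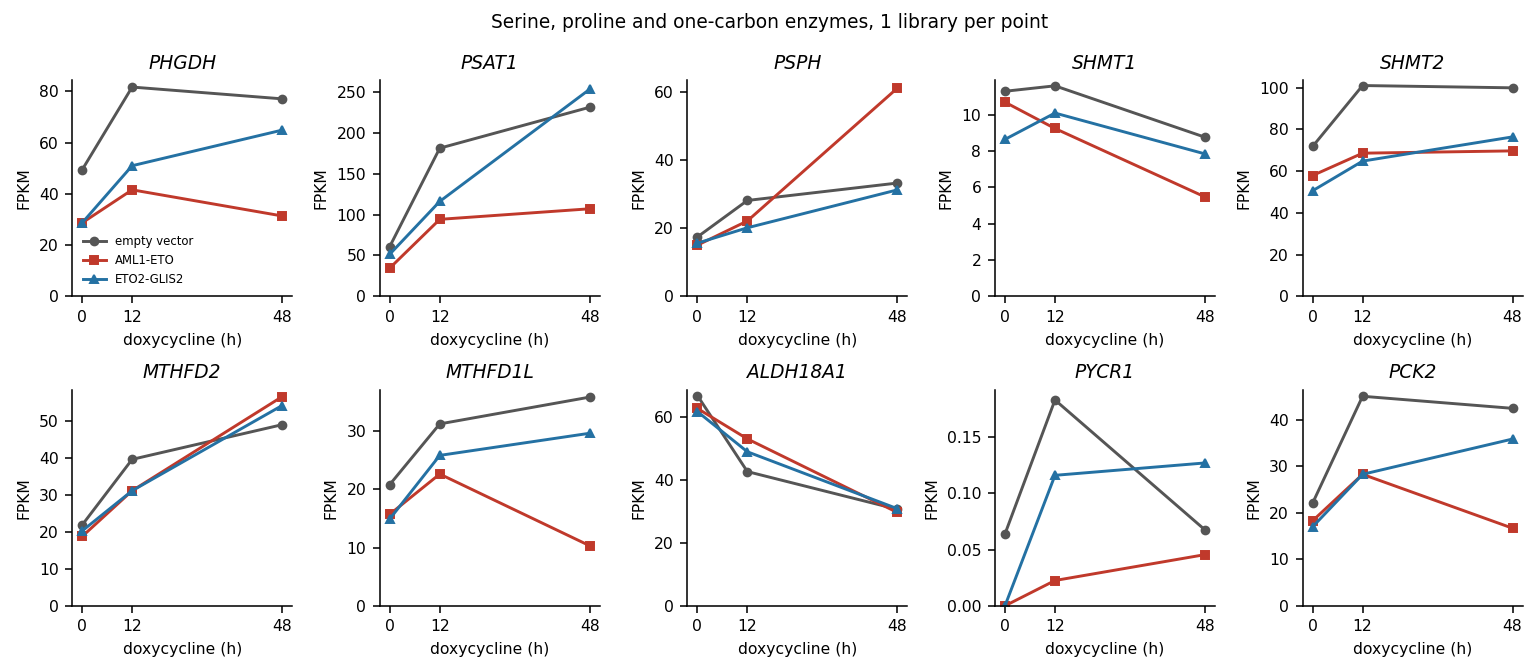
FPKM (y axis, from 0, a separate scale for each gene) against hours of doxycycline (x axis) for the 10 members, with 1 library per point and 1 line per cell line. PSAT1 climbs in every line, ALDH18A1 descends to between 29.7 and 30.9 FPKM in every line, and PHGDH, MTHFD1L and PCK2 peak at 12 h in the AML1-ETO clone, at 41.6, 22.6 and 28.3 FPKM.

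PSAT1, the aminotransferase, had the highest mean level of the members and the largest change at 48 h in the vector line and the ETO2-GLIS2 clone, while in the AML1-ETO clone PSPH changed more. It was at 60.9, 181 and 231 FPKM at 0, 12 and 48 h in the vector line, at 34.6, 94.1 and 107 FPKM in the AML1-ETO clone, and at 51.5, 116 and 253 FPKM in the ETO2-GLIS2 clone. Within each line the levels at 12 and 48 h lay above the level at 0 h. The log2 fold change at 48 h was 1.92 (1.85 to 1.99) in the vector line, 1.63 (1.54 to 1.72) in the AML1-ETO clone and 2.30 (2.23 to 2.36) in the ETO2-GLIS2 clone, higher than that of 98.2%, 92.3% and 98.2% of all genes. By 12 h most of this difference was present in the vector line (1.57) and in the AML1-ETO clone (1.44), whereas in the ETO2-GLIS2 clone PSAT1 was 2.25-fold higher at 12 h and a further 2.18-fold higher at 48 h.

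PHGDH, the dehydrogenase that starts the pathway, took a different course in each line. Its level was 49.4, 81.7 and 77.1 FPKM in the vector line, 28.7, 41.6 and 31.4 FPKM in the AML1-ETO clone, and 28.7, 51.0 and 64.9 FPKM in the ETO2-GLIS2 clone. The fusion lines were at the same level at 0 h and differed at 12 h, with changes of 0.53 (0.48 to 0.59) in the AML1-ETO clone and 0.83 (0.78 to 0.88) in the ETO2-GLIS2 clone. At 48 h the change was 0.64 (0.60 to 0.68), 0.13 (0.07 to 0.19) and 1.17 (1.12 to 1.22) in the same order of lines, and rescaling by the median ratio moved the AML1-ETO value to −0.04. Only the ETO2-GLIS2 change passed 2-fold.

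PSPH, the phosphatase that ends the pathway, behaved in the opposite way in the AML1-ETO clone. It was at 17.4, 28.1 and 33.2 FPKM in the vector line, at 15.0, 22.1 and 61.0 FPKM in the AML1-ETO clone, and at 15.6, 20.1 and 31.2 FPKM in the ETO2-GLIS2 clone. The library of the AML1-ETO clone at 48 h stood above the other 8. Its log2 fold change there was 2.03 (1.91 to 2.15), of which 1.46 (1.36 to 1.57) came after 12 h. The change was 0.93 (0.80 to 1.06) in the vector line and 1.0 (0.88 to 1.13) in the ETO2-GLIS2 clone, where it narrowly passed 2-fold. PSPH has a close copy, PSPHP1, and reads that align to both are left out by the counting at its default settings. PSPHP1 was listed at 3.78 to 7.47 FPKM in the empty vector and AML1-ETO libraries, with its lowest value in the AML1-ETO clone at 48 h, and at 15.2 to 16.9 FPKM in the ETO2-GLIS2 libraries, so levels of PSPH are less certain than those of members without such a copy.

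In all, the 3 serine synthesis enzymes rose together past 2-fold in the ETO2-GLIS2 clone at 48 h, PSAT1 alone of them did so in the vector line, and PSAT1 and PSPH did so in the AML1-ETO clone. After rescaling by the median ratio PSPH stood at 0.84 in the ETO2-GLIS2 clone and no longer passed.

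**Figure D2:**
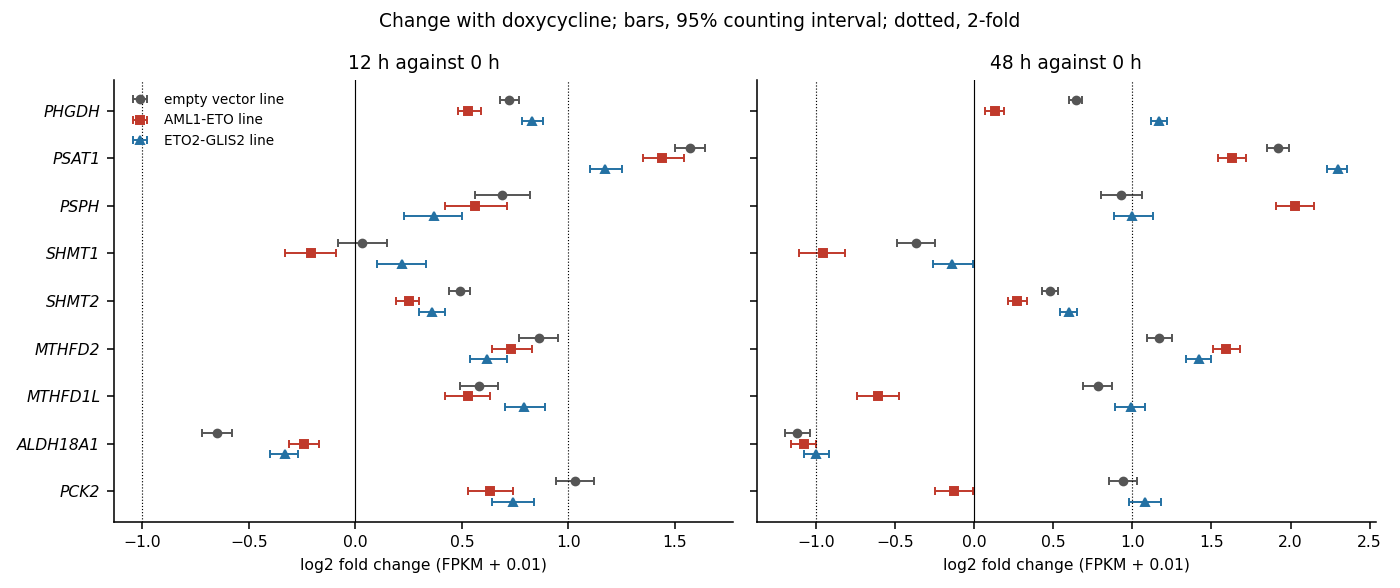
Log2 fold change (x axis) at 12 h (left) and 48 h (right) against 0 h for the 9 members above 1 FPKM (y axis), by cell line, with 95% counting intervals as bars and 2-fold as dotted lines. At 48 h the AML1-ETO points for PHGDH (0.13), MTHFD1L (−0.61) and PCK2 (−0.13) lie to the left of the other lines, and its PSPH point (2.03) lies to the right.

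MTHFD2, the dehydrogenase of the mitochondrial folate route, rose in all 3 lines. It was at 21.9, 39.7 and 49.1 FPKM in the vector line, at 18.8, 31.2 and 56.7 FPKM in the AML1-ETO clone, and at 20.3, 31.2 and 54.3 FPKM in the ETO2-GLIS2 clone. Levels stepped up with time in each line. The change at 48 h was 1.17 (1.09 to 1.25), 1.59 (1.51 to 1.68) and 1.42 (1.34 to 1.5). Genes on the opposite strand overlap 14.1% of its annotated exon bases, most of them in SLC4A5. That annotation gives MTHFD2 11443 exon bases, whereas the FPKM values imply 4822, so the share may not hold for the exons that were counted.

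MTHFD1L, which releases formate in mitochondria, shared the increase at 12 h but not the later course. It was at 20.8, 31.2 and 35.8 FPKM in the vector line, at 15.7, 22.6 and 10.3 FPKM in the AML1-ETO clone, and at 14.9, 25.8 and 29.6 FPKM in the ETO2-GLIS2 clone. At 12 h the AML1-ETO change of 0.53 (0.42 to 0.63) was close to the 0.58 (0.49 to 0.67) of the vector line. From 12 to 48 h MTHFD1L fell in the AML1-ETO clone by 1.13 on the log2 scale (interval −1.26 to −1.01), to the lowest level among the 9 libraries. In the ETO2-GLIS2 clone its change at 48 h was 0.99 (0.89 to 1.08), just short of 2-fold.

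SHMT2, the mitochondrial hydroxymethyltransferase, was 1.20-fold to 1.51-fold higher at 48 h than at 0 h. It was at 71.8, 101 and 99.9 FPKM in the vector line, at 57.9, 68.6 and 69.7 FPKM in the AML1-ETO clone, and at 50.6, 64.8 and 76.4 FPKM in the ETO2-GLIS2 clone. No change passed 2-fold, with 0.48 (0.43 to 0.53), 0.27 (0.21 to 0.33) and 0.60 (0.54 to 0.65) at 48 h. Its cytosolic counterpart SHMT1 was at 11.3, 11.6 and 8.77 FPKM, 10.7, 9.25 and 5.48 FPKM, and 8.65, 10.1 and 7.85 FPKM in the empty vector, AML1-ETO and ETO2-GLIS2 lines. SHMT1 was lower at 48 h than at 0 h in each line, by −0.37 (−0.49 to −0.25), −0.96 (−1.11 to −0.82) and −0.14 (−0.26 to −0.01) on the log2 scale, and the AML1-ETO value passed 2-fold (−1.13) after rescaling by the median ratio.

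Mitochondrial folate enzymes therefore stood higher relative to the cytosolic ones at 48 h in every line. The ratio of SHMT2 to SHMT1 in FPKM was 6.35, 8.73 and 11.4 at 0, 12 and 48 h in the vector line, 5.41, 7.42 and 12.7 in the AML1-ETO clone, and 5.85, 6.44 and 9.73 in the ETO2-GLIS2 clone. MTHFD1, the cytosolic enzyme with several folate activities, was at 13.0, 12.1 and 8.54 FPKM in the vector line, 10.8, 9.95 and 4.68 FPKM in the AML1-ETO clone, and 9.13, 11 and 6.29 FPKM in the ETO2-GLIS2 clone. The ratio of MTHFD2 to MTHFD1 went from 1.69 to 5.76 between 0 and 48 h in the vector line, from 1.74 to 12.1 in the AML1-ETO clone and from 2.22 to 8.64 in the ETO2-GLIS2 clone. A ratio within 1 library does not depend on the library total. MTHFD1L gave a different picture, since its ratio to MTHFD1 went from 1.61 to 4.19 and from 1.63 to 4.70 in the empty vector and ETO2-GLIS2 lines but from 1.45 to 2.20 in the AML1-ETO clone, where it had been 2.27 at 12 h. MTHFD2L, the other mitochondrial relative of MTHFD2, ranged from 0.275 to 0.656 FPKM.

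**Figure D3:**
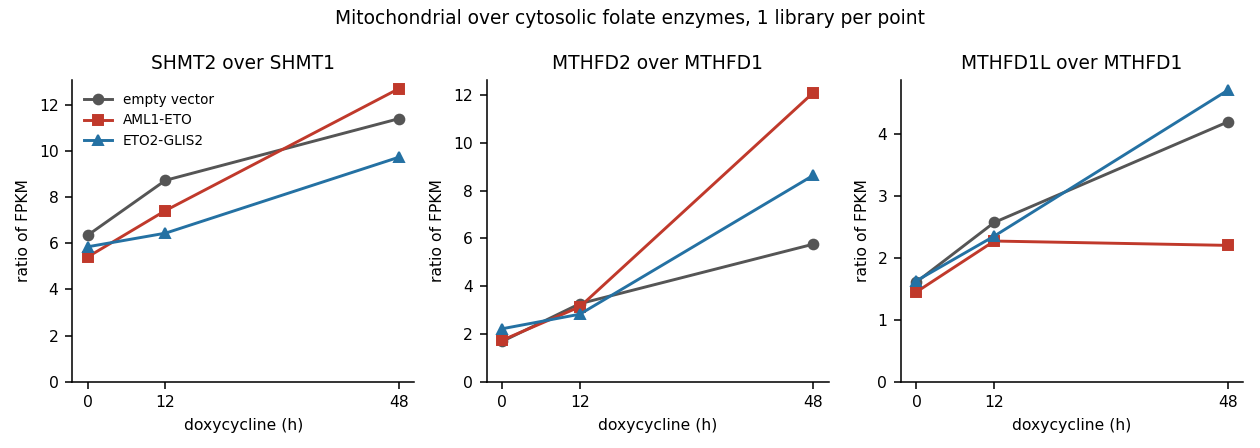
Ratio of FPKM (y axis, from 0) of a mitochondrial enzyme over its cytosolic counterpart against hours of doxycycline (x axis), by cell line, with 1 library per point. SHMT2 over SHMT1 and MTHFD2 over MTHFD1 climb in every line, to 12.7 and 12.1 in the AML1-ETO clone, while MTHFD1L over MTHFD1 stays near 2.2 after 12 h in that line.

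The proline enzymes did not follow the serine enzymes. ALDH18A1, which makes the first intermediate of proline from glutamate, was at 66.9, 42.7 and 30.7 FPKM in the vector line, at 62.8, 53.1 and 29.7 FPKM in the AML1-ETO clone, and at 61.8, 49.0 and 30.9 FPKM in the ETO2-GLIS2 clone. Levels stepped down with time in each line. The change at 48 h was −1.12 (−1.20 to −1.04), −1.08 (−1.16 to −1.0) and −1.0 (−1.08 to −0.92). The last fell just short of the threshold and passed it (−1.16) after rescaling by the median ratio. In the empty vector and ETO2-GLIS2 lines, 2.34% and 2.51% of all genes had a lower change than ALDH18A1, and in the AML1-ETO clone 10.3% did. This gene, grouped here with targets of ATF4, was lower in every line at the times when ATF4 transcript was higher.

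PYCR1, the mitochondrial reductase that completes proline, was listed at 0.0639, 0.183 and 0.0675 FPKM in the vector line, at 0, 0.0225 and 0.0455 FPKM in the AML1-ETO clone, and at 0, 0.116 and 0.127 FPKM in the ETO2-GLIS2 clone. These values rest on 0 to 8 reads per library, too few for a change to be read from them. Other genes overlap 29.7% of its annotated exon bases, of which 14.1% lie on the same strand in MYADML2, itself at 0.106 FPKM or less. ASNS, asparagine synthetase and a well-known ATF4 target, was also near 0, at 0.0132 to 0.137 FPKM, and 49.3% of its exon bases overlap a gene on the same strand. Whether the counting of overlapping genes set these low values was not tested. PYCR3, the cytosolic reductase, was at 0.616 to 2.84 FPKM.

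PCK2, the mitochondrial phosphoenolpyruvate carboxykinase, resembled PHGDH. It was at 22.1, 45.1 and 42.5 FPKM in the vector line, at 18.3, 28.3 and 16.7 FPKM in the AML1-ETO clone, and at 17.0, 28.3 and 35.9 FPKM in the ETO2-GLIS2 clone. The fusion lines had the same level at 12 h and parted afterwards. At 12 h the change in the vector line was 1.03 (0.94 to 1.12), a call that was lost with a pseudocount of 1 FPKM and with either other scaling of the libraries. At 48 h it was 0.94 (0.85 to 1.03), −0.13 (−0.25 to −0.01) and 1.08 (0.98 to 1.18) in the empty vector, AML1-ETO and ETO2-GLIS2 lines, and the last value was 0.91 after rescaling by the median ratio. PCK1, the cytosolic form, was listed at 0 in all 9 libraries.

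The differences between lines can be read against the vector line at the same time. Before doxycycline all 9 members were lower in both fusion lines than in the vector line, with medians of −0.28 in the AML1-ETO clone and −0.39 in the ETO2-GLIS2 clone, against 0.01 and −0.02 over all genes. None of these differences passed 2-fold, beside 2.57% of all genes higher and 2.10% lower in the AML1-ETO clone, and 3.40% higher and 2.85% lower in the ETO2-GLIS2 clone. PHGDH differed by −0.78 in both fusion lines, and PSAT1 by −0.82 (−0.92 to −0.72) in the AML1-ETO clone but by −0.24 (−0.33 to −0.16) in the ETO2-GLIS2 clone. At 48 h PHGDH, PSAT1, MTHFD1L and PCK2 were more than 2-fold lower in the AML1-ETO clone, by −1.30, −1.11, −1.79 and −1.35, and none was more than 2-fold higher, while 11.7% of all genes were lower and 11.6% higher. The ETO2-GLIS2 clone had no member past 2-fold at 48 h, beside 4.01% higher and 2.36% lower.

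Subtracting the change of the vector line from that of each fusion line takes these starting differences into account. For the AML1-ETO clone at 48 h the difference of log2 fold changes was 1.10 (0.92 to 1.28) for PSPH and 0.42 (0.31 to 0.54) for MTHFD2, and it was −1.39 (−1.54 to −1.23) for MTHFD1L, −1.07 (−1.22 to −0.92) for PCK2, −0.60 (−0.78 to −0.41) for SHMT1, −0.51 (−0.59 to −0.44) for PHGDH, −0.29 (−0.41 to −0.18) for PSAT1 and −0.21 (−0.29 to −0.13) for SHMT2. ALDH18A1 gave 0.04 (−0.07 to 0.16), an interval that includes 0. For the ETO2-GLIS2 clone the 9 differences ranged from 0.07 (−0.10 to 0.25) for PSPH to 0.53 (0.47 to 0.60) for PHGDH, with 0.37 (0.28 to 0.47) for PSAT1. These intervals were built from counting standard errors and leave out variation between cultures, so they do not show that a difference would recur. In the AML1-ETO clone at 48 h, 9 of 12 proliferation genes and all 13 mitochondrial genes had also fallen, beside 11.3% of all genes. In the ETO2-GLIS2 clone 1 of the 12 and 10 of the 13 had fallen, beside 2.51%, and in the vector line 1 and 4, beside 2.90%. The summed level of the 10 monocytic markers ranged over the 3 times from 122 to 1456 FPKM in the AML1-ETO clone, from 481 to 1652 FPKM in the ETO2-GLIS2 clone and from 528 to 907 FPKM in the vector line. Lysozyme (LYZ) made up much of that sum, at 969.7, 1346 and 45.1 FPKM in the AML1-ETO clone and 1283, 1517 and 332 FPKM in the ETO2-GLIS2 clone. Of 6 markers tested in the ETO2-GLIS2 clone at 48 h, CD33 and ITGAM rose and LYZ fell, beside 10.6% of all genes up. ITGAM was at 2.23, 4.56 and 11.5 FPKM in that clone. In the AML1-ETO clone LYZ and SPI1 fell and none of 5 rose, beside 17.1% up. In the vector line ITGAM rose and none of 6 fell, beside 7.82% up. The part of these genes in the values of the members was not tested.

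**Figure D4:**
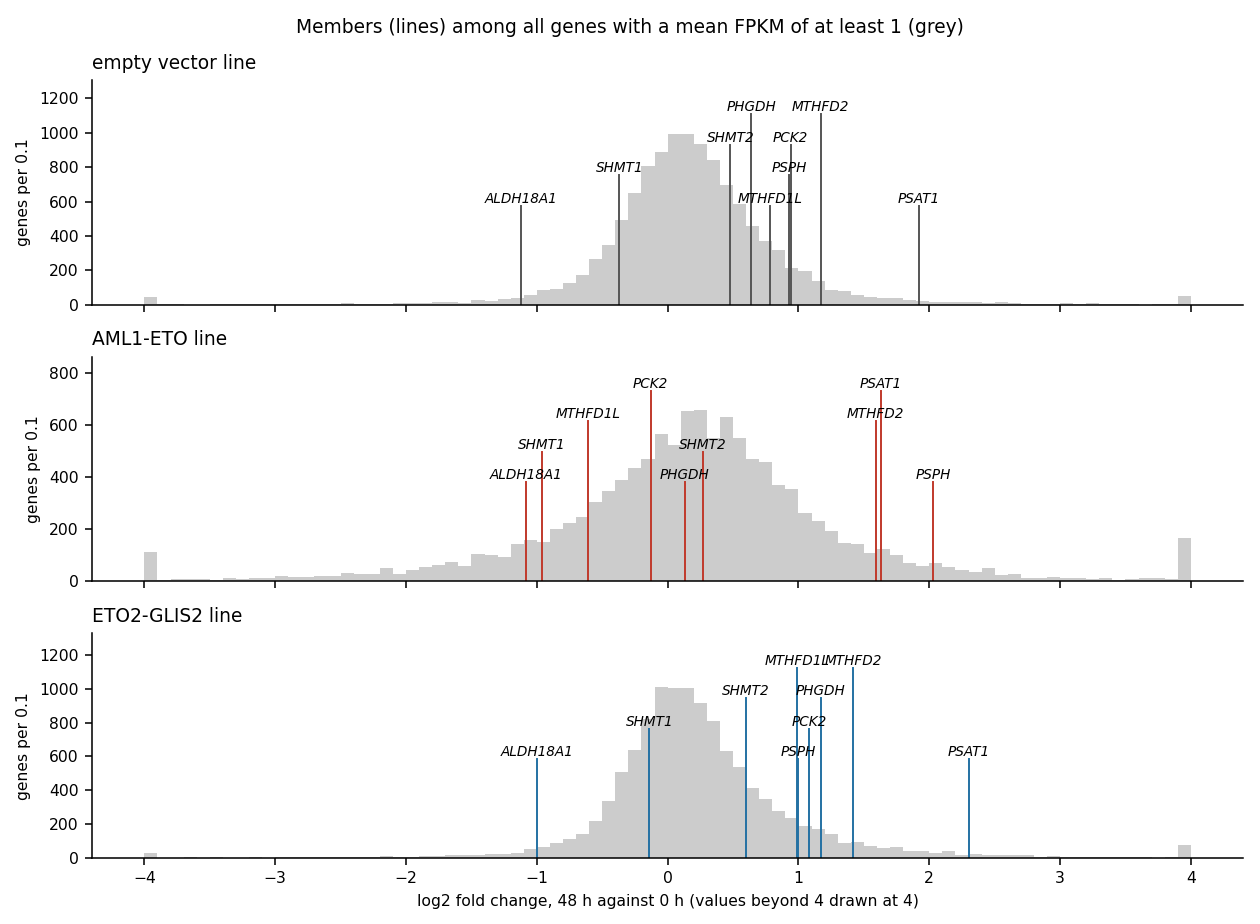
Histogram of log2 fold changes at 48 h against 0 h (x axis, values beyond 4 drawn at 4) of all genes with a mean of at least 1 FPKM (grey, genes per bin of 0.1 on the y axis) in each line, with the 9 members as labelled vertical lines whose heights carry no value. PSAT1 lies above 98.2% of genes in the empty vector and ETO2-GLIS2 lines, and the members of the AML1-ETO clone spread from −1.08 to 2.03.

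ATF4 itself was at 109, 194 and 249 FPKM in the vector line, at 86.7, 198 and 312 FPKM in the AML1-ETO clone, and at 86.8, 154 and 217 FPKM in the ETO2-GLIS2 clone. It rose in every line at 48 h, by 1.20 (1.14 to 1.25), 1.85 (1.79 to 1.90) and 1.32 (1.27 to 1.38) on the log2 scale. Its highest level was in the AML1-ETO clone at 48 h. There PHGDH, MTHFD1L and PCK2 were at most 1.09 times their level at 0 h. PSAT1, PSPH and MTHFD2 were 3.09, 4.08 and 3.02 times theirs, SHMT2 was at 1.20 times, and SHMT1 and ALDH18A1 were at 0.513 and 0.473 times. The part of ATF4 in these levels was not tested. Of 23 ATF4 regulators and targets outside the members, 18 were tested, and at 48 h 13 rose in the vector line, beside 7.82% of all genes. In the AML1-ETO clone 12 rose and 1 (SLC1A4, a transporter of serine and other neutral amino acids) fell, beside 17.1% up and 11.3% down. In the ETO2-GLIS2 clone 14 rose, beside 10.6%. The medians of the 18 were 1.30, 2.02 and 1.49. CHAC1, which breaks down glutathione, changed by 2.85, 2.89 and 2.73, and TRIB3, a pseudokinase that restrains ATF4, by 1.62, 2.02 and 1.42, while DDIT3 (CHOP), whose exons overlap other genes over 39.6% of their bases, was at 8.65, 7.89 and 8.0 FPKM at 48 h. At 12 h 8 of the 18 had risen in the vector line, 6 in the AML1-ETO clone and 0 in the ETO2-GLIS2 clone, beside 5.49%, 6.40% and 2.94% of all genes. In the ETO2-GLIS2 clone 15 of the 18 were nonetheless above 0 at 12 h, with a median of 0.49. ATF4 stood there at 0.82 (0.77 to 0.88), CHAC1 at 0.96 (0.45 to 1.5) and TRIB3 at −0.23 (−0.38 to −0.08), and PSAT1 had passed 2-fold. Of 8 eIF2α kinases and linked genes, 1 was called at 48 h in any line, the interferon-inducible kinase EIF2AK2, at 3.34 (3.27 to 3.42) in the AML1-ETO clone.

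As a description over the 9 libraries, which share lines and times, the members followed different courses. PHGDH was most like PCK2 (Pearson r 0.96 on log2 FPKM), MTHFD1L was most like PCK2 (0.94) and SHMT2 was most like PHGDH (0.89). PSPH was most like MTHFD2 (0.92), as was PSAT1 (0.88), and SHMT1 was most like ALDH18A1 (0.66). The likeness to ATF4 was 0.96 for MTHFD2, 0.93 for PSPH, 0.80 for PSAT1, 0.66 for SHMT2, 0.48 for PCK2, 0.47 for PHGDH, 0.22 for MTHFD1L, −0.59 for SHMT1 and −0.90 for ALDH18A1. Among 7211 other genes with a mean of at least 5 FPKM, those most like the mean course of the 9 members were CNDP2 (0.98), a dipeptidase, SLC7A1 (0.98), the cationic amino acid transporter, RAB3IL1 (0.96), GPT2 (0.95), the mitochondrial alanine aminotransferase, and GRB10 (0.95), an adaptor of growth factor receptors. SLC7A1 was at 26.5, 39.1 and 36.3 FPKM in the vector line, 16.8, 22.9 and 16.5 FPKM in the AML1-ETO clone, and 14.1, 23.1 and 31.6 FPKM in the ETO2-GLIS2 clone, the course seen for PHGDH.

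Neighbouring pathways moved less. Of 17 folate cycle genes 10 were tested at 48 h and none rose, while TYMS, which makes thymidylate, was among those that fell in the AML1-ETO clone. Of 9 genes that use serine, 8 were tested in the vector line, where SDSL, a serine dehydratase relative, rose, 8 in the AML1-ETO clone, where SDSL and CBS, which joins serine to homocysteine, rose, and 9 in the ETO2-GLIS2 clone, where CBS, CTH and SDSL rose. Of 8 tested proline and glutamate genes GPT2 rose in the vector line (1.06) and the ETO2-GLIS2 clone (1.37) and ALDH4A1, of proline breakdown, fell in the AML1-ETO clone (−1.30). Of 5 tested methionine cycle genes MAT2A rose in the ETO2-GLIS2 clone (1.12), and the 1 tested gene of glycine cleavage was not called.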

How the data were processed

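RNA from 9 U937 cultures, 1 for each line and time, was sequenced. The submitters' processing notes name HISAT2 (2.0.5), SAMtools (1.7), HTSeq (0.9.1) and hg38, and the authors deposited FPKM, computed from reads counted on genes at default settings. Which annotation was used, and how exon length was defined, is not given in the sources used here. HTSeq at default settings leaves out reads that align to several places or fall on several genes. Each file held 1 value column and 0 columns of other samples.

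Reads were recovered from the FPKM steps in Python (3.11.15) with scipy (1.17.1), pandas (2.3.3) and numpy (2.4.6), a method checked on simulated data, and served only for intervals and totals. Plots were drawn with matplotlib (3.10.9). There is 1 library per condition, and no count model, test or p-value was used. Changes are log2(FPKM + 0.01), which understates the change of low genes, for genes with a mean of at least 1 FPKM, called past 2-fold. The median of all genes moved by 0.16, 0.22 and 0.16 at 48 h in the empty vector, AML1-ETO and ETO2-GLIS2 lines, and by 0.00, 0.04 and −0.01 after rescaling by the median ratio.

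The members and gene lists were chosen with earlier results of these data known. Named genes are the members, their partner isozymes, ATF4, ASNS, TRIB3, DDIT3 and CHAC1, up to 3 genes per other list with the largest called change at 48 h and a mean of at least 5 FPKM, and the 5 genes most like the members. TYMS, SDSL, CBS, SLC1A4, the cell type markers and PSPHP1 were named after their values were seen. Copies of the other members were added after the values of the members were seen. Alternatives were the pseudocount, the filter, the scaling, the fold threshold and subtraction of the vector line. Coordinates and upstream sequences are from RefSeq on GRCh38.p14, and exon overlaps, given as shares only, are from GENCODE on GRCh37. The exon length implied by the FPKM values equalled that of the GENCODE exons for 5 of the 10 members, so the shares are approximate for the others. Some genes of the lists are not reported here.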

Additional observations from a re-analysis of the deposited data

Results flagged for a closer look

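None of the 10 members changed in one direction at both times in one line and in the opposite direction at both times in another. A direction was read only where the 95% counting interval excluded 0, so genes without recovered reads could not be flagged. Of the 107 genes of the lists with a mean of at least 1 FPKM, 95 had recovered reads. Of these, 5 changed in opposite directions in this way, with 1 library per condition, and the difference was not tested for any of them. SLC1A4, a transporter of serine, was higher at 12 and 48 h in the vector line (0.55 and 0.63 on the log2 scale) and the ETO2-GLIS2 clone (0.40 and 0.79) and lower in the AML1-ETO clone (−0.55 and −1.17), so at 48 h the vector line exceeded the AML1-ETO clone by 1.80 and the AML1-ETO clone differed from the ETO2-GLIS2 clone by −1.95. SPTLC2, which joins serine to a fatty acid at the start of sphingolipid synthesis, was lower in the vector line (−0.21 at 48 h) and higher in the AML1-ETO clone (0.70) and the ETO2-GLIS2 clone (0.05), differences of −0.91 and −0.27. SPI1, which encodes PU.1, differed by 3.50 between the empty vector and AML1-ETO lines and by 0.66 between the empty vector and ETO2-GLIS2 lines. The remaining cases, CBFA2T3 and GLIS2, supply the parts of ETO2-GLIS2. CBFA2T3 differed by 4.85 between the empty vector and AML1-ETO lines and by −6.14 between the AML1-ETO and ETO2-GLIS2 lines, and GLIS2 by −2.24 between the empty vector and ETO2-GLIS2 lines and by −3.06 between the AML1-ETO and ETO2-GLIS2 lines.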

How the results depend on the processing

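With a 1.5-fold threshold the called members went from 2 to 6 at 12 h and from 3 to 7 at 48 h in the vector line, from 1 to 3 at 12 h and from 2 to 6 between 12 and 48 h in the AML1-ETO clone, and from 1 to 5 at 12 h, from 5 to 8 at 48 h and from 1 to 4 between 12 and 48 h in the ETO2-GLIS2 clone. Against the vector line at 0 h they went from 0 to 2 in the AML1-ETO clone and from 0 to 1 in the ETO2-GLIS2 clone. The share of all genes called grew as well, to 14.3% up and 3.66% down at 12 h and 20.2% and 7.33% at 48 h in the vector line, to 17.9% and 6.11% at 12 h and 18.8% and 20.8% between 12 and 48 h in the AML1-ETO clone, to 8.82% and 3.30%, 22.2% and 6.22%, and 13.3% and 6.07% at 12 h, at 48 h and between them in the ETO2-GLIS2 clone, and to 6.63% and 4.33%, and 10.1% and 9.18%, against the vector line at 0 h. A pseudocount of 1 FPKM, the median ratio and a total without the mitochondrial genome each left 1 of the 2 calls of the vector line at 12 h, that of PSAT1. Without a filter on low values PYCR1, at 0 to 8 reads, added 1 call between 12 and 48 h in the vector line (1 in place of 0), in each fusion line at 12 h (2 in place of 1) and in each against the vector line at 0 h (1 in place of 0). Subtracting the vector line left 0 calls in both fusion lines at 12 h, and 0 in the ETO2-GLIS2 clone at 48 h and between 12 and 48 h. The median change of the members in the AML1-ETO clone at 48 h, 0.13, became −0.04 after the median ratio and −0.29 after subtraction, and PSAT1 and ALDH18A1 became −0.29 and 0.04 there after subtraction. The median ratio moved the changes at 48 h of 27 of 30 member and line pairs beyond their counting intervals, none with a change of sign among members called. The labels carry no replicate numbers, so no replicate block was fitted. A fit of the times paired within line was not run, and with 1 library per condition no library could be left out of a change within a line. Depth did not limit 9 members (607 to 11400 reads per library) and left PYCR1 unread.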
